A study of Mus musculus with 10 samples.

Results

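Transcript levels of the PARP enzymes, of the sirtuins and of the genes that salvage NAD were compared between fasted livers of mice lacking both macroH2A genes and fasted wild-type livers. The list held 10 genes: Parp1, Parp2, Parp3, Parg, Nampt, Nmnat1, Nnmt, Sirt1, Sirt3 and Cd38. They were chosen for their function, since the macrodomain of macroH2A is known to interact with PARP1. A gene was represented by the probe set whose platform annotation gave its symbol and no other, and 9 of the 10 genes had such a probe set, 1 each, out of 22180 genes that could be named in this way. No probe set used here carried the symbol of Cd38, so that gene was not analysed here.

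There were 5 arrays of double knockout livers (macroH2A1 macroH2A2 double knockout) and 5 arrays of wild-type livers. All mice were males of the strain 129/S6 (taconic), aged 2 months, on low fat chow, and were killed in the morning after about 16 h without food, so fed livers were not part of the design. The sources used here do not tell how the knockout alleles were made or whether arrays were run in batches. The labels do not say in so many words that each sample was a separate animal, so the p-values measure the spread between these samples.

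PARP enzymes cut NAD and attach the ADP-ribose unit to proteins, and PARP1 and PARP2 build chains of it at DNA breaks. The released nicotinamide is turned back into NAD by NAMPT and then an NMNAT enzyme, or is methylated by NNMT and lost from the cycle. Sirtuins also spend NAD, in removing acyl groups from proteins. The macrodomain of one splice form of macroH2A1 binds ADP-ribose and PARP1, which links these histones to NAD use, and liver is a main site of NAD metabolism.

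All values are log2 expression levels as deposited, and a difference of 1 on this scale is 2-fold. Medians of the 10 arrays lay between 6.43 and 6.46, and correlations between arrays between 0.989 and 0.995. As a guide to background, the 95th percentile of the 1108 olfactory receptor probe sets, receptors of the nose, was 6.54. Macroh2a1 stood at 9.02 to 9.18 on the double knockout arrays, against 9.51 to 9.66 on the wild-type arrays (log2 difference -0.49, SE 0.05, limma adjusted p = 0.00128). The signal of this knocked-out gene thus stayed above that guide, at a fold of 0.71 of wild type. The call for Macroh2a1 was lost once the mean of macrophage markers entered the fit (limma adjusted p = 0.0509), while its difference there was -0.47 and lay between -0.52 and -0.47 in all 24 alternatives. Macroh2a2 averaged 6.12 ± 0.19 in double knockout livers and 6.32 ± 0.28 in wild-type livers (SD, n = 5 each), both under that guide, and was not called (limma adjusted p = 0.514). Hepatocyte markers were all above the guide, 8 of 8, with list means of 13.36 to 13.40 in double knockout livers and 13.35 to 13.44 in wild-type livers. Macrophage markers had higher means in double knockout livers for 12 of 12 genes (list means per array 9.06 to 9.39, against 8.81 to 9.15 in wild-type livers), and pancreas acinar markers varied within both groups (6.03 to 8.86 in double knockout livers, against 5.97 to 10.80 in wild-type livers). In whole liver, a change in the number of cells of a type cannot be told apart from a change of RNA per cell. The macrophage marker means largely followed the genotype, so fits that hold them as a covariate cannot separate the 2 well.

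None of the 9 measured genes passed the test. Double knockout and wild-type livers were compared in limma over 25335 probe sets with Benjamini-Hochberg adjustment, and 224 probe sets (0.884%) had an adjusted p under 0.05. Adjusted p-values of the 9 genes ran from 0.321 to 0.985 in limma. At an unadjusted p under 0.05 there was 1 gene, Nampt, where 15.1% of all probe sets tested lay under that limit. The 2 groups overlapped for all 9 genes, whereas they did not overlap for 3.90% of all probe sets. Means were lower in double knockout livers for 8 of the 9, against 51.5% of all probe sets tested, and for 7 of the 9 after median centring or a second quantile normalization, where Sirt3 had the other sign. The median log2 difference of the 9 was -0.07, beside -0.003 over all probe sets tested.

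**Figure D1:**
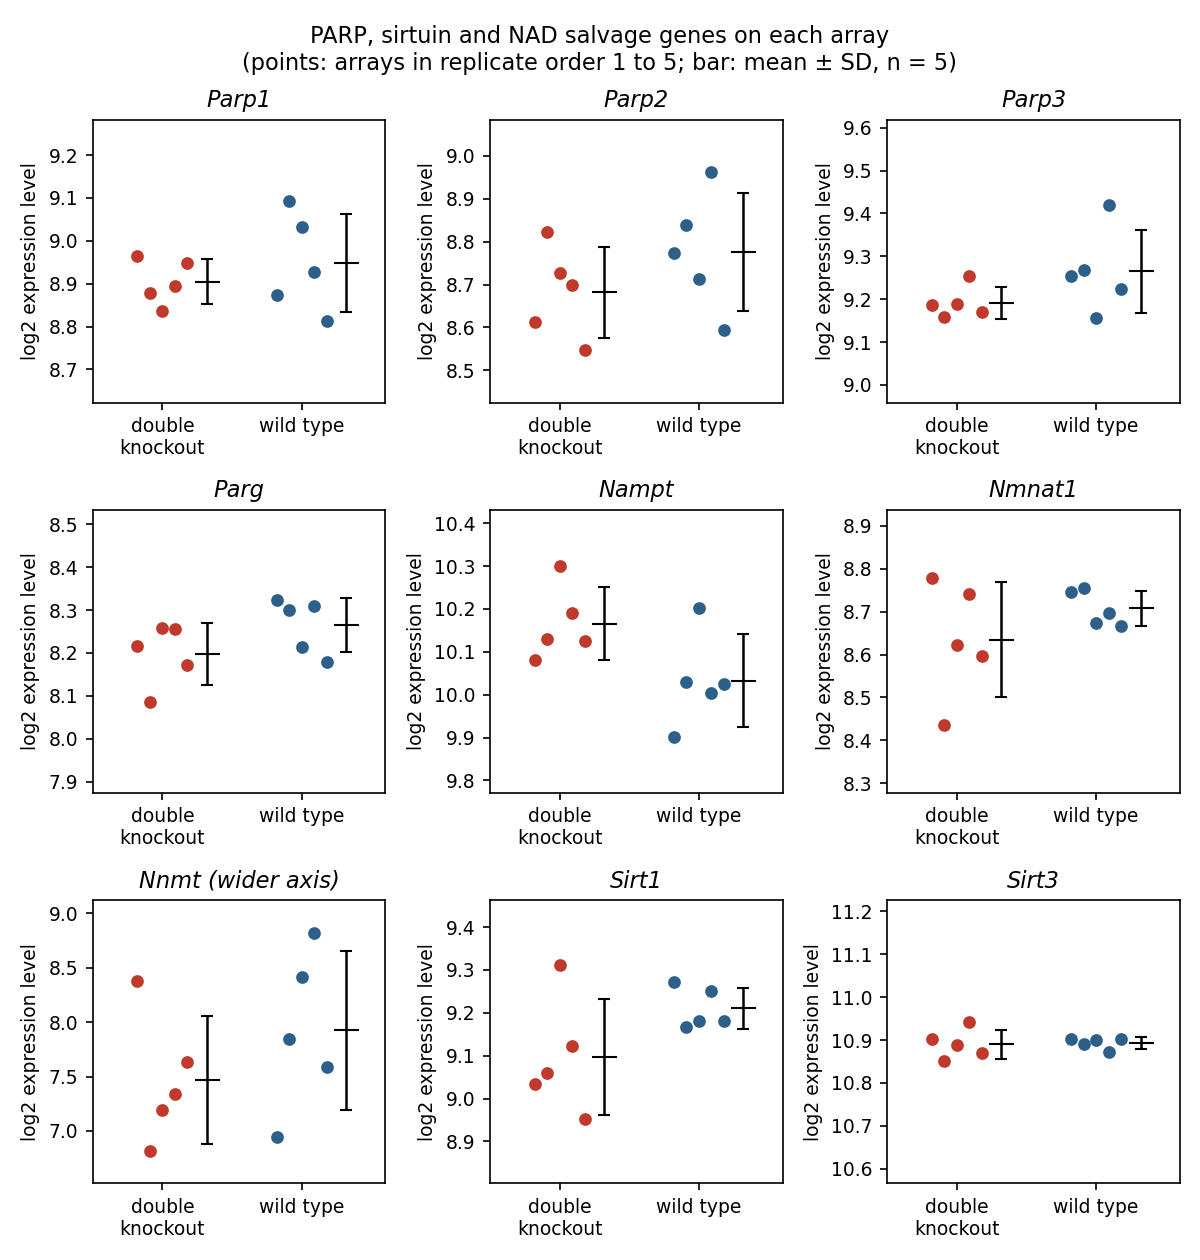
Log2 expression level of each gene on the y axis, for 5 double knockout and 5 wild-type arrays; points are arrays in the order of their replicate numbers and bars the mean ± SD (n = 5). All axes span the same range except that of Nnmt, which is wider. The groups overlap in all 9 panels, Nnmt spans 6.82 to 8.82, and Sirt3 stays between 10.85 and 10.94.

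Parp1 (probe set 17220122), which makes most of the poly(ADP-ribose) formed at DNA breaks, stood at 8.97, 8.88, 8.84, 8.89 and 8.95 in double knockout livers, against 8.87, 9.09, 9.03, 8.93 and 8.81 in wild-type livers. All 5 double knockout arrays lay inside the wild-type range. The log2 difference of Parp1 was -0.04 (SE 0.06, limma adjusted p = 0.79), with a 95% interval from -0.17 to 0.08, or a change of -10.9% to 5.69%. Differences within that interval could not be resolved with 5 arrays a group.

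Parp2 (probe set 17299518), the closest relative of Parp1 in strand break signalling, had 8.61, 8.82, 8.73, 8.70 and 8.55 in double knockout livers and 8.77, 8.84, 8.71, 8.96 and 8.59 in wild-type livers. Replicate 5 of the double knockouts lay below all wild-type arrays. Its log2 difference was -0.09 (SE 0.07, limma adjusted p = 0.59), with a 95% interval of -0.25 to 0.06.

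Parp3 (probe set 17530703), a mono-ADP-ribosylating enzyme of double-strand break repair, had 9.19, 9.16, 9.19, 9.25 and 9.17 in double knockout livers and 9.25, 9.27, 9.16, 9.42 and 9.22 in wild-type livers. The double knockout values lay close together within the wild-type range, with an SD of 0.04 beside 0.10 in wild type. Its log2 difference was -0.07 (SE 0.05, limma adjusted p = 0.551), with a 95% interval of -0.18 to 0.04.

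Parg (probe set 17298528), the glycohydrolase that takes poly(ADP-ribose) chains apart, had 8.22, 8.08, 8.26, 8.26 and 8.17 in double knockout livers and 8.32, 8.30, 8.21, 8.31 and 8.18 in wild-type livers. All 5 double knockout arrays lay below the wild-type median, and 2 of them below the lowest wild-type array. The log2 difference was -0.07 (SE 0.05, limma adjusted p = 0.562), with a 95% interval of -0.17 to 0.04. The intervals of Parp1, Parp2, Parp3 and Parg all included 0, and the lowest bound of the 4 was that of Parp2, a change of -15.9%. With the mean of macrophage markers in the fit, the differences were -0.005 for Parp1, -0.25 for Parp2 (limma adjusted p = 0.29), -0.12 for Parp3 and -0.03 for Parg. Single arrays also moved them: Parp1 had -0.007 when wild-type replicate 2 was left out and -0.08 when it was wild-type replicate 5, Parp2 had -0.05 and Parp3 -0.03 without wild-type replicate 4, and Parg had -0.04 without double knockout replicate 2. With the 4 arrays richest in pancreas markers left out, Parp1 had -0.11 and Parp3 -0.02.

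Nampt (probe set 17274875), the rate-limiting enzyme of NAD salvage, was the 1 gene of the 9 with a higher mean. It stood at 10.08, 10.13, 10.30, 10.19 and 10.13 in double knockout livers, against 9.90, 10.03, 10.20, 10.00 and 10.02 in wild-type livers. All 5 double knockout arrays lay above the wild-type median, and wild-type replicate 3 reached into their range. The log2 difference was 0.13 (SE 0.06, 95% interval 0.002 to 0.26), a fold of 1.10, with an unadjusted p of 0.0466 and an adjusted p of 0.321 in limma. In the exact permutation test of Nampt alone, two-sided, p was 0.0714 (n = 5 each), where the smallest possible p is 0.00794. The difference ranged from 0.10 to 0.18 when each array was left out in turn, and Nampt was not called in any of the alternatives tried.

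Nmnat1 (probe set 17433151), the nuclear enzyme that completes NAD after NAMPT, had 8.78, 8.44, 8.62, 8.74 and 8.60 in double knockout livers and 8.75, 8.75, 8.67, 8.70 and 8.67 in wild-type livers. The double knockout arrays lay on both sides of the narrow wild-type range, 3 below it and 1 above it, with an SD of 0.13 beside 0.04 in wild type. Its log2 difference was -0.07 (SE 0.06, limma adjusted p = 0.637), with a 95% interval of -0.21 to 0.06. With the mean of macrophage markers in the fit it was 0.03 instead.

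The gene with the largest spread was Nnmt (probe set 17526695), which methylates nicotinamide and so removes it from salvage. Its levels were 8.38, 6.82, 7.19, 7.34 and 7.64 in double knockout livers and 6.95, 7.84, 8.42, 8.82 and 7.59 in wild-type livers. The 2 groups covered largely the same range, and the 10 livers spanned 4.02-fold. The log2 difference was -0.45 (SE 0.34, limma adjusted p = 0.594), with a 95% interval of -1.20 to 0.30, or a change of -56.5% to 23.0%. Both a 2-fold lower level and no difference lay inside this interval. The value depended on single arrays: it was -0.70 without double knockout replicate 1 and -0.23 without wild-type replicate 4. Leaving out replicate 1 of both groups gave -0.92 (limma adjusted p = 0.11).

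Within a genotype, Nnmt varied more than nearly every other transcript, and Sirt3 less than nearly every other. The within-group SD of Nnmt was 0.66, at percentile 99.7 of the 25335 probe sets, and that of Sirt3 was 0.03, at percentile 0.3. The other 7 genes had within-group SDs of 0.07 for Parg to 0.12 for Parp2, between percentiles 20.9 and 72.6, around the median of 0.10 over all probe sets tested. The pancreas acinar marker means were highest in double knockout replicates 1 and 2 and wild-type replicates 4 and 5. On these 4 arrays Nnmt stood at 8.38 and 6.82 in the double knockout pair and at 8.82 and 7.59 in the wild-type pair, so they held both the lowest and the highest Nnmt level.

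**Figure D2:**
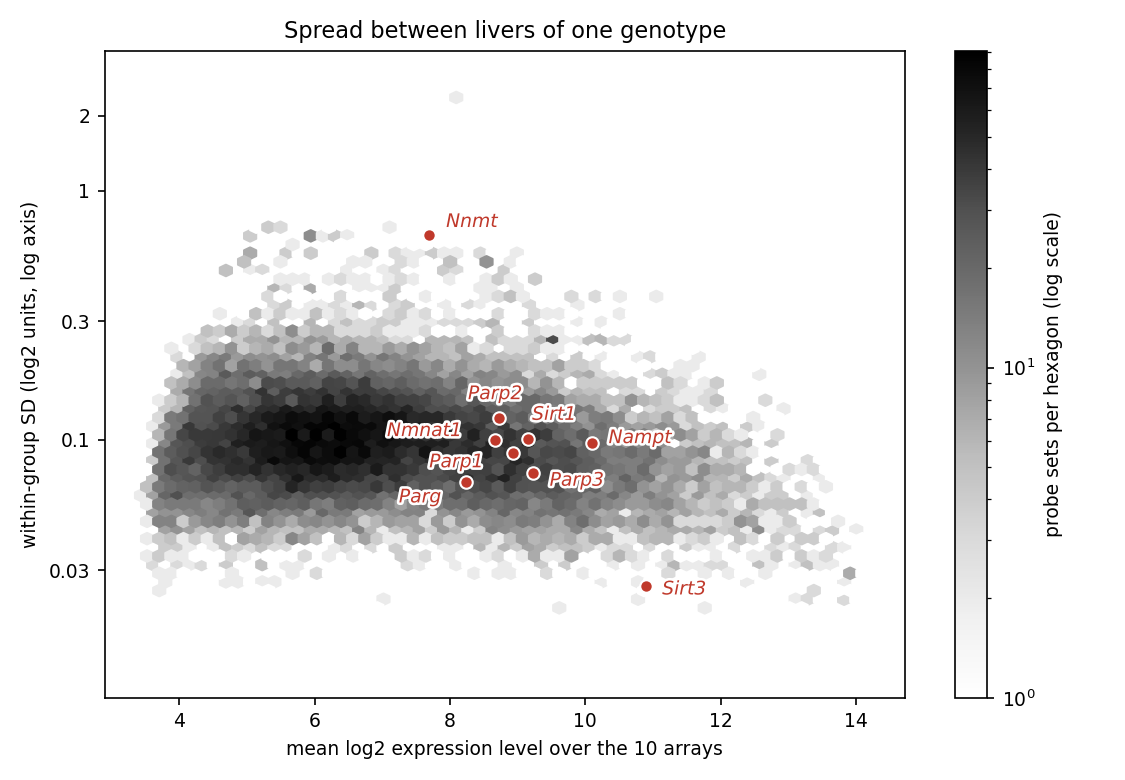
Within-group SD (log2 units, log axis) against mean log2 expression level over the 10 arrays for the 25335 probe sets tested, shaded by their number per hexagon, with the 9 genes as red points. Nnmt lies near the top of the cloud at an SD of 0.66, Sirt3 near the bottom at 0.03, and the other 7 in its middle.

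The sirtuins differed in spread as well. Sirt1 (probe set 17241582), a nuclear deacetylase known to act on the fasting response of liver, had 9.03, 9.06, 9.31, 9.12 and 8.95 in double knockout livers and 9.27, 9.17, 9.18, 9.25 and 9.18 in wild-type livers. Of the double knockout arrays, 4 lay below all wild-type arrays and the fifth, replicate 3, above all of them. The log2 difference was -0.11 (SE 0.06, unadjusted p of 0.0895 and adjusted p of 0.418 in limma), with a 95% interval of -0.25 to 0.02. Without double knockout replicate 3 it was -0.17 (limma adjusted p = 0.159), still not called. The exact permutation test of Sirt1 alone, two-sided, gave p = 0.119 (n = 5 each). Sirt1 and the knocked-out gene Macroh2a2 both lie on chromosome 10, and whether this bears on the level of Sirt1 was not tested.

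Sirt3 (probe set 17497693), the main deacetylase of mitochondria, had 10.90, 10.85, 10.89, 10.94 and 10.87 in double knockout livers and 10.90, 10.89, 10.90, 10.87 and 10.90 in wild-type livers. These 10 values lay within 0.09 of each other. The log2 difference was -0.003 (SE 0.04, limma adjusted p = 0.985), with a 95% interval from -0.08 to 0.07, or a change of -5.40% to 5.33%, the narrowest of the 9 intervals.

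The promoters of Nampt and Sirt1 are printed because these 2 genes had the lowest p-values of the 9 and lay on opposite sides of 0, and because the clock genes described further on include factors that bind the motifs searched. Each window holds the 250 bases before the RefSeq transcription start, 5′ to 3′ (build GRCm38.p6). Capitals mark the E-box CACGTG, which CLOCK and BMAL1 bind and which reads the same on both strands, and the nuclear receptor half-site AGGTCA, searched on both strands, which is part of the element that REV-ERB proteins bind. The 2 motifs did not overlap in these windows. The Nampt window is chr12:32820085-32820334 on the plus strand and the Sirt1 window is chr10:63339036-63339285 on the minus strand.
Nampt: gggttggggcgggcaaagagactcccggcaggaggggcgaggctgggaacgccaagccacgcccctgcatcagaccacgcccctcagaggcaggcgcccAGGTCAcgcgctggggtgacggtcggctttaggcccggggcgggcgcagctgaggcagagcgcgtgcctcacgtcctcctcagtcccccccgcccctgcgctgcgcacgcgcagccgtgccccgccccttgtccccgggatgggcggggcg
Sirt1: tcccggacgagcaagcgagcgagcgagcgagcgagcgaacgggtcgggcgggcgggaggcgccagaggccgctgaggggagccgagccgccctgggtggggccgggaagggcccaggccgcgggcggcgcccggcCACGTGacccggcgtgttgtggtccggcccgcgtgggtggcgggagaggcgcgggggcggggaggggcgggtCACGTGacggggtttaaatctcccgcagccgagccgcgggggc
The Nampt window held 1 half-site, starting 151 bases before the start, and 0 E-boxes. The Sirt1 window held 2 E-boxes, starting 115 and 43 bases before the start, and 0 half-sites. Of 32851 promoter windows of this length, 6.02% held an E-box and 14.0% a half-site. Promoter windows were at hand for 8 of the 9 genes, all but Nnmt, and E-boxes also stood in those of Parp1 and Parp2 and a half-site in that of Parg. Such matches describe the letters only, and none of them is shown to be bound. The bases beside the half-site that complete the element of REV-ERB proteins were not searched.

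The 9 genes were also set against each other. Their deviations from the group means were correlated over the 10 arrays for 36 pairs, which takes out the difference between the group means. After Benjamini-Hochberg adjustment over the 36 pairs, 0 passed by Pearson's r or Spearman's rho, and 2 had an unadjusted p under 0.05 for r and 4 for rho. Parg and Nmnat1 had r = 0.74 (permutation p = 0.00874, adjusted p = 0.315) and rho = 0.65 (permutation p = 0.0479, adjusted p = 0.393). Without double knockout replicate 2 and wild-type replicate 5, the arrays farthest from the median of Parg, r was 0.43, so the relation rested in part on them. Nmnat1 and Sirt3 had r = 0.75 (permutation p = 0.0181, adjusted p = 0.325) and rho = 0.55 (permutation p = 0.105, adjusted p = 0.45), with r = 0.70 without double knockout replicates 1 and 2. Both genes spread more in double knockout livers (SD 0.13 and 0.03) than in wild-type livers (SD 0.04 and 0.01). The double knockout arrays thus weighed more in this r, and the permutations over all 10 arrays took no account of it. The lowest r of the 36 pairs was -0.47, for Parp1 and Sirt1 (permutation p = 0.162, adjusted p = 0.833). Their rho was -0.54 (permutation p = 0.112, adjusted p = 0.45), and r was -0.73 without wild-type replicates 2 and 5. Sirt1 had positive r with Parp2 (0.41, permutation p = 0.245, adjusted p = 0.874) and with Parp3 (0.26, permutation p = 0.414, adjusted p = 0.874). Under an unadjusted p of 0.05 for rho alone were Parp3 and Parg (rho = 0.76, permutation p = 0.0148), Parp1 and Nnmt (rho = 0.71, permutation p = 0.0255) and Parp3 and Nmnat1 (rho = 0.67, permutation p = 0.0389), each with an adjusted p of 0.393. Their r was 0.57 (permutation p = 0.0731, adjusted p = 0.658), 0.49 (permutation p = 0.153, adjusted p = 0.833) and 0.29 (permutation p = 0.403, adjusted p = 0.874) in the same order, and 0.71, 0.69 and 0.63 without the 2 arrays farthest from the median of the first gene. The median r of the 36 pairs was 0.14. The groups have 5 arrays each, too few for values within a group.

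**Figure D3:**
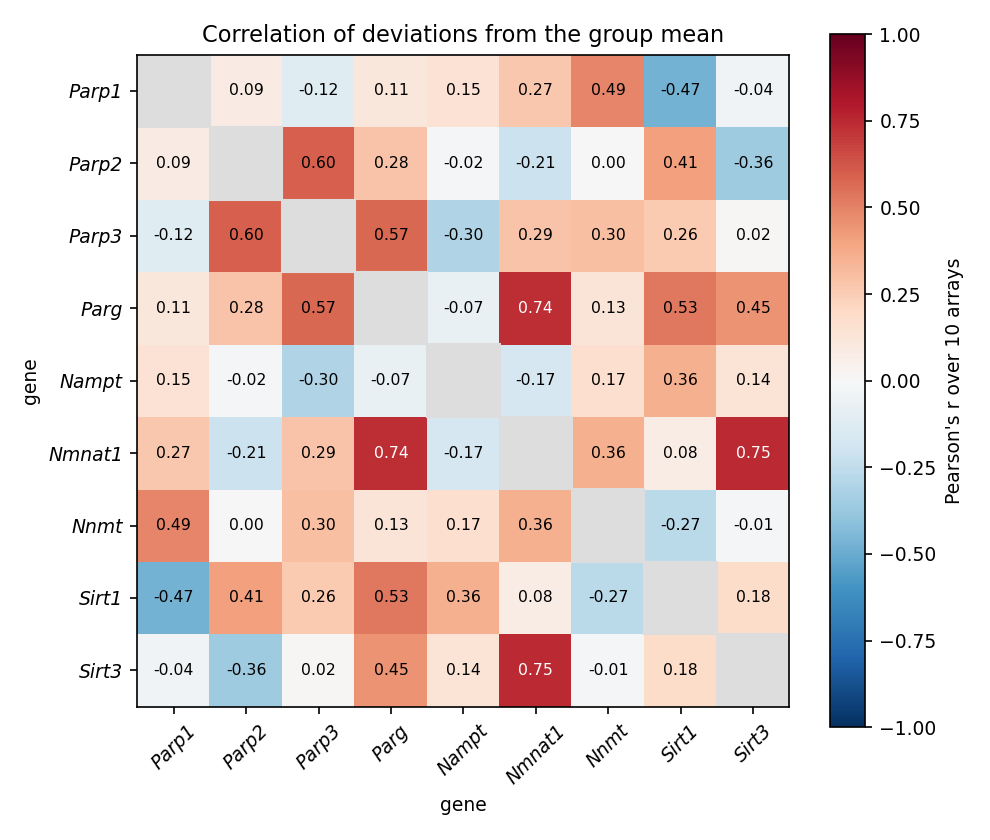
Pearson's r over the 10 arrays between the deviations of each pair of genes from their group means, from -1 (blue) to 1 (red), with the genes on both axes. The highest values are 0.75 for Nmnat1 with Sirt3 and 0.74 for Parg with Nmnat1, and the lowest is -0.47 for Parp1 with Sirt1.

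The rest of the machinery was followed in 66 measured genes of 70 listed, of which 2 were called, both lower in double knockout livers. Over all probe sets tested, 0.884% were called in either direction and 0.553% were called lower. For each list the genes called and otherwise the 2 of lowest p are named. Over the 66 genes, 44 had lower means (66.7%, against 51.5% of all probe sets tested), the median log2 difference was -0.04, and 33.3% had an unadjusted p under 0.05, beside 15.1% of all probe sets. The groups did not overlap for 9 of the 66 (13.6%), beside 3.90% of all probe sets. Parts of these lists had been seen to move in earlier results of these data, so the shares are not independent evidence.

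Of 11 measured genes among the other PARP family members, 7 had higher and 4 lower means, 0 were called, 1 had an unadjusted p under 0.05, and the median log2 difference was 0.01. Parp8, a mono-ADP-ribosyltransferase of little known function, averaged 6.88 ± 0.20 in double knockout livers and 6.62 ± 0.11 in wild-type livers (SD, n = 5 each), a log2 difference of 0.26 (SE 0.09, limma adjusted p = 0.20). All double knockout arrays of Parp8 lay above all wild-type arrays, and both means lay just above the background guide of 6.54. With the mean of macrophage markers in the fit, the difference of Parp8 was 0.11 (limma adjusted p = 0.803), and without the 4 arrays richest in pancreas markers it was 0.16. Parp14, an enzyme of interferon and cytokine signalling, averaged 8.25 ± 0.10 in double knockout livers and 8.17 ± 0.08 in wild-type livers (SD, n = 5 each), a log2 difference of 0.09 (limma adjusted p = 0.534), and of -0.0002 without the 4 arrays richest in pancreas markers.

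Genes that remove or read ADP-ribose had lower means in 7 of 10, with a median log2 difference of -0.05, and 0 were called, with 2 under an unadjusted p of 0.05. Macrod1, a macrodomain hydrolase of mitochondria that takes single ADP-ribose units off proteins, averaged 9.08 ± 0.04 in double knockout livers and 9.27 ± 0.07 in wild-type livers (SD, n = 5 each). The groups did not overlap, and the log2 difference of -0.18 (SE 0.04, 95% interval -0.28 to -0.09) missed the threshold in limma (adjusted p = 0.076). Of 24 alternatives, only the test limited to probe sets above the background guide gave Macrod1 an adjusted p under 0.05 (0.0461 in limma). Without the 4 arrays richest in pancreas markers its difference was -0.13. Its highest adjusted p among the alternatives was 0.382 in limma. Nudt5, a hydrolase of free ADP-ribose, averaged 8.52 ± 0.02 in double knockout livers and 8.42 ± 0.08 in wild-type livers (SD, n = 5 each). All double knockout arrays of Nudt5 lay above all wild-type arrays, with a log2 difference of 0.10 (SE 0.05, limma adjusted p = 0.321).

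All 5 other sirtuins had lower means, by -0.17 to -0.04, and 0 were called, with 1 under an unadjusted p of 0.05. Sirt7, a sirtuin of the nucleolus, averaged 8.63 ± 0.13 in double knockout livers and 8.80 ± 0.07 in wild-type livers (SD, n = 5 each), a log2 difference of -0.17 (SE 0.06, limma adjusted p = 0.248), and of -0.09 with the mean of macrophage markers in the fit. Without the 4 arrays richest in pancreas markers the difference of Sirt7 was -0.26. Sirt2, mainly a cytosolic deacetylase, had -0.07 (SE 0.05, limma adjusted p = 0.569).

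The 7 other genes of NAD salvage also all had lower means, with a median log2 difference of -0.11, and 0 were called, with 3 under an unadjusted p of 0.05. Nadsyn1, the NAD synthetase that ends the routes from nicotinic acid and tryptophan, averaged 8.69 ± 0.12 in double knockout livers and 8.86 ± 0.11 in wild-type livers (SD, n = 5 each), a log2 difference of -0.18 (SE 0.07, limma adjusted p = 0.239). Nmrk1, the kinase that takes up nicotinamide riboside into NAD, averaged 9.28 ± 0.12 in double knockout livers and 9.49 ± 0.16 in wild-type livers (SD, n = 5 each), a log2 difference of -0.20 (SE 0.08, limma adjusted p = 0.264), and of -0.10 with the mean of macrophage markers in the fit. Without the 4 arrays richest in pancreas markers the difference was -0.33 for Nmrk1 and -0.25 for Nadsyn1. Nampt, with 0.13, thus lay on the other side of 0 from the 7 other salvage genes, a contrast that was not tested.

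Among the other genes that break down nicotinamide or NAD, all 4 had lower means, with a median log2 difference of -0.06, and 0 were called, with 1 under an unadjusted p of 0.05. Aox3, an aldehyde oxidase of liver that oxidises methylnicotinamide, the product of NNMT, averaged 11.92 ± 0.15 in double knockout livers and 12.20 ± 0.06 in wild-type livers (SD, n = 5 each). Its log2 difference was -0.28 (SE 0.07, limma adjusted p = 0.0796), and it was called without double knockout replicate 2 (-0.35, limma adjusted p = 0.0124). Of 24 alternatives, this was the only 1 with an adjusted p of Aox3 under 0.05, and the highest was 0.191 in limma. Sarm1, an NAD hydrolase known from axon degeneration, stood below the background guide at 6.19 ± 0.12 in double knockout livers and 6.28 ± 0.04 in wild-type livers (SD, n = 5 each). Bst1, the relative of Cd38, also lay below it, at a mean of 5.87 over the 10 arrays, and was added to the text after its level was seen.

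In the route from tryptophan to NAD, 4 of 9 genes had lower means and 1 was called, lower in double knockout livers, against 0.553% of all probe sets called lower, and 3 had an unadjusted p under 0.05. Haao, which makes the direct precursor of quinolinic acid, stood at 12.23, 12.32, 12.28, 12.24 and 12.28 in double knockout livers and at 12.48, 12.45, 12.45, 12.60 and 12.45 in wild-type livers. The groups did not overlap, and the log2 difference was -0.22 (SE 0.04, limma adjusted p = 0.0402). Leaving out any 1 of the 10 arrays ended the call (limma adjusted p up to 0.10), with differences of -0.23 to -0.19. The other genes of this route under an unadjusted p of 0.05, named after their values were seen, were Afmid, the kynurenine formamidase, with -0.24 (SE 0.06, limma adjusted p = 0.0746, no overlap between the groups), and Ido2, a dioxygenase that acts on tryptophan, with -0.38 (SE 0.10, limma adjusted p = 0.117). Of the genes of NADP and NAD transport, 3 of 4 had lower means, 0 were called and 2 had an unadjusted p under 0.05. In that list Nadk2, the mitochondrial NAD kinase, had a log2 difference of -0.17 (SE 0.04, limma adjusted p = 0.0868, no overlap between the groups). Nnt, the transhydrogenase that makes NADPH in mitochondria, had -0.12 (SE 0.05, limma adjusted p = 0.266).

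**Figure D4:**
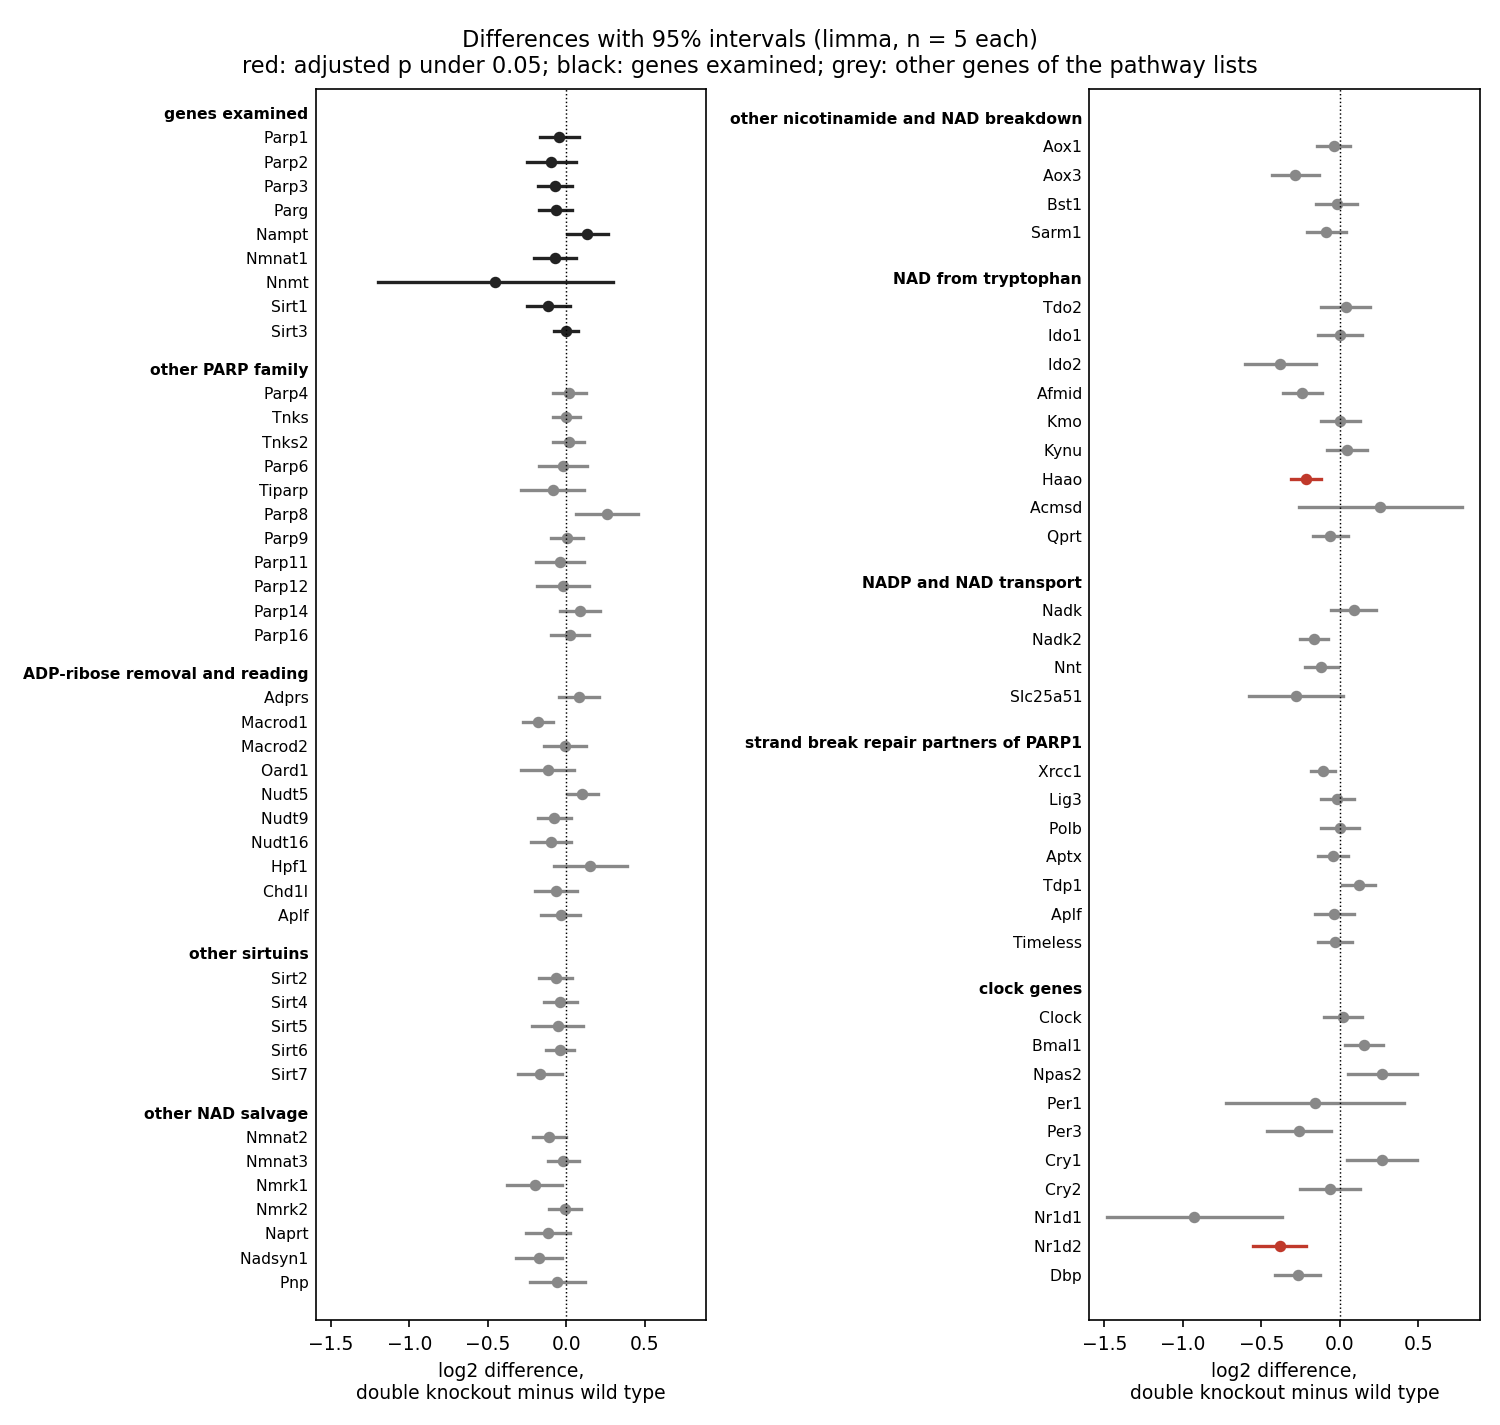
Log2 difference, double knockout minus wild type, on the x axis with 95% intervals from limma (n = 5 each), for the 9 genes examined (black) and the 66 other genes of the pathway lists (grey, or red where the adjusted p was under 0.05). Haao and Nr1d2 are the 2 red genes, and the interval of Nnmt is the widest of the 9. Aplf stands in 2 lists.

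Clock genes were followed because CLOCK and BMAL1 are known to drive Nampt in liver. Of 10 measured clock genes, 4 had higher and 6 lower means, 1 was called, lower in double knockout livers (0.553% of all probe sets were called lower), and 7 had an unadjusted p under 0.05 (70%, beside 15.1% of all probe sets). Nr1d2, the repressor REV-ERB beta, stood at 8.98, 9.03, 9.08, 8.89 and 8.87 in double knockout livers and at 9.30, 9.20, 9.36, 9.65 and 9.27 in wild-type livers, a log2 difference of -0.38 (SE 0.08, limma adjusted p = 0.0461). All double knockout arrays lay below all wild-type arrays, and the call was lost in 9 of the 10 fits without 1 array (limma adjusted p up to 0.114), with differences of -0.42 to -0.31. With the mean of macrophage markers in the fit it was -0.59. Its relative Nr1d1 had -0.93 (SE 0.26, limma adjusted p = 0.116) and Bmal1, which both repress, had 0.15 (SE 0.06, limma adjusted p = 0.217). The other clock genes under an unadjusted p of 0.05 lay on both sides of 0. Dbp had -0.27 (limma adjusted p = 0.0837, no overlap between the groups) and Per3 -0.26 (limma adjusted p = 0.211). Npas2 had 0.27 (limma adjusted p = 0.233) and Cry1 0.27 (limma adjusted p = 0.244). All of these clock genes but Nr1d2 were named with their values in view. Whether these differences bear on Nampt was not tested.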

How the data were processed

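The authors deposited log2 values, 1 per probe set and array. Per the submitters' processing notes, the program was Affymetrix Expression Console; the sources used here do not tell its version, summarisation or normalization. Array medians nearly coincide (6.43 to 6.46), so the arrays appear to have been normalized before deposit. Scanner files were not analysed here, so background and saturation could not be read, and the number of arrays limits the precision. Of 41345 rows, 25335 with at least 1 annotated symbol were tested with lmFit and eBayes of limma 3.58.1 in R 4.3.3 (1 term for the genotype, two-sided), with 8 residual and 3.96 prior degrees of freedom and Benjamini-Hochberg adjustment; the threshold was an adjusted p of 0.05. Intervals are 95% intervals of the moderated fit. Adprs and Bmal1 were found under the older symbols Adprhl2 and Arntl by gene identifier; Parp10, Adprh and Per2 had no probe set of their own, and 1 further listed gene is not reported here. Correlations used 100000 permutations. Fits were tested on simulated data.

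The genes, lists and tests were chosen with earlier results of these data known. Named were the 10 listed genes, the knocked-out genes, called genes of each list or else the 2 of lowest p, and for each measured gene the 1 gene most like it. Alternatives were other moderation, array weights, normalization, row filters, a replicate block, marker means as covariates and left-out arrays.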

Additional observations from a re-analysis of the deposited data

Results flagged for a closer look

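In groups of 5 arrays, a value was singled out where its gap to the nearest other array exceeded 0.71 of the group's range. This held for 10 of 158 groups of the genes examined, and chance gives about 1 in 20. None of the 9 measured genes of the list was among them. Of the named genes, Macrod1 in double knockout replicate 2 was at 9.01 with the nearest array at 9.10 (gap over range 0.870), Nmrk1 in wild-type replicate 4 at 9.20 with the nearest at 9.53 (0.869), Aox3 in double knockout replicate 2 at 12.18 with the nearest at 11.90 (0.717), and Haao in wild-type replicate 4 at 12.60 with the nearest at 12.48 (0.803).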

How the results depend on the processing

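The count of 0 called among the 9 measured genes held in all 24 alternatives, also at an adjusted p under 0.1, and their median difference lay between -0.09 and -0.04 when 1 array was left out (10 fits), with -0.03 under the macrophage covariate. Of the named genes followed in the alternatives, Nmnat1 (1 alternative), Sirt3 (7) and Parp14 (1) changed sign, none of them called. Probe sets called over the whole table, 224, were 64 to 253 without 1 array, and 377 among rows above the background guide, 75 over every row, 585 at an adjusted p under 0.1, 68 without the 4 arrays richest in pancreas markers, 23 with the macrophage covariate and 613 without replicate 1 of both groups. Called pathway genes, 2, were 0 to 1 without 1 array, 1 after quantile normalization again, 4 among rows above the guide, 7 at the looser threshold, 1 with the macrophage covariate, and 0 over every row, without the 4 pancreas arrays, with the pancreas covariate and without replicate 1 of both groups. Of the knocked-out genes, 1 was called in each alternative but the macrophage covariate, with 0. With the replicate number as a block, 76 probe sets and 0 pathway genes were called; same-numbered arrays had correlations of deviations of -0.48 to 0.28, so equal numbers were not taken as pairs. The cause of these shifts was not tested. Each of the 9 genes had 1 probe set, so averaging over rows gave the same values. In the pathway lists Tnks and Tiparp had 2 each and stand by the one of higher mean level, with differences of 0.0003 and -0.09, beside 0.09 and 0.02 for the other.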

Other observations

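Strand break repair partners of PARP1 had lower means in double knockout livers for 5 of 7 measured genes, with a median log2 difference of -0.03, and 0 were called in limma, with 2 under an unadjusted p of 0.05. Xrcc1, the scaffold that PARP1 activity recruits to breaks, averaged 8.11 ± 0.02 in double knockout livers and 8.21 ± 0.03 in wild-type livers (SD, n = 5 each), with no overlap between the groups and a log2 difference of -0.11 (SE 0.04, limma adjusted p = 0.181). Tdp1, which clears trapped topoisomerase I from DNA, averaged 8.78 ± 0.04 in double knockout livers and 8.66 ± 0.09 in wild-type livers (SD, n = 5 each), a log2 difference of 0.12 (SE 0.05, limma adjusted p = 0.26).

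For each measured gene, the transcript with the most similar level over the 10 arrays was looked up among 12556 other genes above the background guide, as a description. Nnmt was most like Sgk1, a kinase known to be induced by glucocorticoids, with r = 0.96 over all arrays and 0.96 for deviations from the group means. Sgk1 stood at 9.10, 8.70, 8.80, 8.89 and 8.97 in double knockout livers and at 8.77, 8.93, 9.18, 9.29 and 9.04 in wild-type livers, a range of 0.59 beside the 2.01 of Nnmt. The other best matches were Tectb for Parp1 (r = 0.93), Cnppd1 for Parp2 (0.97), Mfn1 for Parp3 (0.94), Gatd1 for Parg (0.93), Atg16l1 for Nampt (0.91), Srpx2 for Nmnat1 (0.92), Vps28 for Sirt1 (0.95) and Tmem64 for Sirt3 (0.94). Each is the highest of 12556 values, and the 99th percentiles were already 0.69 to 0.83.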
